A study of Homo sapiens with 2 samples.

Results

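Cytosolic ribosomal protein genes encode the proteins of the small (40S) and large (60S) subunits of the ribosome that translates nuclear mRNAs. Here they were the protein-coding genes whose RefSeq symbol was RPL or RPS followed by a digit, or RPLP0, RPLP1, RPLP2 or RPSA, without the RPS6K kinases. This gave 91 of 20037 protein-coding genes, of which 55 had RPL symbols and 36 had RPS symbols. A core of 77 genes remained without 10 paralogs such as RPL22L1, 3 read-through genes, and RPS19BP1, which the symbol rule takes in although it encodes a binding protein of RPS19. The genes were examined in the peak list of a chromatin immunoprecipitation followed by sequencing (ChIP-seq) of the HCC (liver cancer) line MHCC-97H, in which HA-tagged RFX6 was overexpressed and precipitated through its tag. RFX6 is one of the RFX transcription factors (RFX stands for regulatory factor X). The series holds 1 HA-RFX6 ChIP library, whose peaks are described here, and 1 input library of the same cell line, which was not analysed here. There was no replicate, no precipitation from cells without the tagged protein was analysed here, and the read depth behind the peaks is unknown.

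Ribosomal protein genes are expressed in nearly every cell, and their products are needed in equal amounts. Many of their mRNAs start with a cytosine followed by a run of pyrimidines, the 5′ terminal oligopyrimidine (TOP) motif, through which their translation follows growth signals of the mTOR pathway. RFX proteins bind the X-box, an inverted repeat of short half-sites, and are best known for ciliary and immune genes.

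Intervals were found at 23 of the 91 genes (25.3%, 95% Wilson interval 17.5% to 35.1%), when an interval had to overlap the gene or lie within 1 kb of it. Among all protein-coding genes the share was 19.6%. The Wilson interval of the ribosomal protein genes included the share of all genes, so a difference was not detectable by this rule at this number of genes. Ribosomal protein genes are short, with a median length of 5127 bp against 24115 bp for all protein-coding genes. Among the 10736 protein-coding genes no longer than the longest core gene (27723 bp), 16.7% had an interval, which was just below the lower bound. The other 68 ribosomal protein genes had none. No test between lists was made, since genes are not replicates, and the Wilson intervals cover the counting of genes only.

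Where the start was known, nearly all of these genes had their interval there. The strand, and with it the start, was given in the RefSeq promoter table for 72 of the 91 genes. Of these, 18 had an interval. It was within 1 kb of the start in 16 (22.2% of 72, 14.2% to 33.1%) and within 1 kb of the far end in 1, RPS18. For all protein-coding genes with a known start, the shares were 15.5% at the start and 1.28% at the far end. With either gene end allowed, 22 of the 23 ribosomal protein genes with an interval had one within 1 kb of an end. The same held for 3184 of the 3935 protein-coding genes with an interval, which include longer genes. The 16 genes were RPS14, RPLP2, RPL6, RPLP0, RPL26, RPL32, RPL35, RPS3, RPS25, RPL7A, RPL22L1, RPL9, RPS13, RPL13, RPS3A and RPS12.

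To show what the intervals cover, the promoter sequence of 6 of these genes is given from 150 bases before to 30 bases after the annotated start (RefSeq, GRCh38.p14), with the bases inside an interval in capitals. These 6 were chosen after the values were seen, because their intervals reach into the window to different extents. The whole window is covered at RPLP0 and RPL35, the window up to the start at RPS25, and only its upstream part at RPL13 and RPL22L1. At RPS14 an uncovered stretch before the start separates the 2 intervals.
RPLP0, chr12:120201082-120201261, minus strand: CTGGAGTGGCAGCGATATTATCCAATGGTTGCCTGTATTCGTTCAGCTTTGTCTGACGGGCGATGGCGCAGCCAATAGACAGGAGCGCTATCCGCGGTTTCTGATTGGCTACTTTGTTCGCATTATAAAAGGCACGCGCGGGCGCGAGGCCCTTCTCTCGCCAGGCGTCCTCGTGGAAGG
RPS14, chr5:150449710-150449889, minus strand: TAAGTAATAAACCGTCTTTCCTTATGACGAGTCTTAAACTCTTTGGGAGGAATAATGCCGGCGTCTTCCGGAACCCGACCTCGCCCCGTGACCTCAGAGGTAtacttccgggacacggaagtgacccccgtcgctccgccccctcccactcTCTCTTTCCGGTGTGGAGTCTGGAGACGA
RPL35, chr9:124861928-124862107, minus strand: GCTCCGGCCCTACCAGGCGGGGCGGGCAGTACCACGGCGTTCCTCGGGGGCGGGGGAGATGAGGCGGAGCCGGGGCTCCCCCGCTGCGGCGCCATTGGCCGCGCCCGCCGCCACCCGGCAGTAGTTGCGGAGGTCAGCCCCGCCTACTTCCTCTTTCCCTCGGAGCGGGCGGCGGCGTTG
RPS25, chr11:119018314-119018493, minus strand: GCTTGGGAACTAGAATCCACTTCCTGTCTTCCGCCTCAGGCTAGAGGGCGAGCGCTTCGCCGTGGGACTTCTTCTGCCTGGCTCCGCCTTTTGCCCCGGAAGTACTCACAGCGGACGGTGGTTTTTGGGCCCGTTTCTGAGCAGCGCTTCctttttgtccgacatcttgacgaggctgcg
RPL13, chr16:89560507-89560686, plus strand: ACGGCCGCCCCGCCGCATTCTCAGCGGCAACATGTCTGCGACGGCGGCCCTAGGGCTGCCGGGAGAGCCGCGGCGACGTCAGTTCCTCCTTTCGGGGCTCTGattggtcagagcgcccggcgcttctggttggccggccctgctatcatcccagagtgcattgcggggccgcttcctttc
RPL22L1, chr3:170870166-170870345, minus strand: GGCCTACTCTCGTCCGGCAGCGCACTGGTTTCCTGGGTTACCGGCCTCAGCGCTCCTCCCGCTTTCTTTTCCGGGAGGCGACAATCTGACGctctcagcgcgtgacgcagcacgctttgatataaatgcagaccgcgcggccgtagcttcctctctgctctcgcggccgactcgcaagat

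The starts of the genes themselves show the TOP motif. The 15 bases before the annotated start and the 15 bases from it onward are given here for 12 genes, with the pyrimidine run that contains the start base in capitals. All 12 genes have a cytosine at the start and a pyrimidine at each of the next 4 bases.
RPLP0: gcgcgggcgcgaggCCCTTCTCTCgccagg
RPLP2: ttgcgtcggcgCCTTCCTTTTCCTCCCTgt
RPL7A: ccacaaTTCCCTTTCCTTTCTCTCTCCTCC
RPL22L1: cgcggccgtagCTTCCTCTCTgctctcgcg
RPL26: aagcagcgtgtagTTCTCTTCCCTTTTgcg
RPL35: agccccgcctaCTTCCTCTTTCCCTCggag
RPS3: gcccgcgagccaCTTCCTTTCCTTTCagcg
RPS3A: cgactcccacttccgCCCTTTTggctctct
RPS12: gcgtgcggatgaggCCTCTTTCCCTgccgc
RPS13: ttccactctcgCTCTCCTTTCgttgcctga
RPS14: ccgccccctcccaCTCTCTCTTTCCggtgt
RPS25: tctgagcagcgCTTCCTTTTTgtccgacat

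In contrast, the annotated start has no such cytosine with pyrimidines at RPL9 and RPL13, and at RPL32 and RPL6. At RPL13 another start in the table has one. The position of an interval was counted from the outer end of the gene, and the sequence was read at the listed start nearest to that end. The 2 differ at RPL6, where the nearest listed start lies 7393 bp inside the gene, away from its interval, and at RPL26L1 (4635 bp) and RPL27 (146 bp), which had no interval at the start.
RPL9: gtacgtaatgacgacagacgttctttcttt
RPL13: ggccctgctatcaTCCCagagtgcattgcg

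The TOP start was found at 45 of 72 genes with a promoter sequence (62.5%), compared with 4.59% of 15843 protein-coding genes. RPL36A and RPL36A-HNRNPH2 share the same start and sequence, as do RPL17 and RPL17-C18orf32. Each of these genes was counted, here and in the motif counts below. Among the 16 genes with an interval at the start it was found at 12 (75%), and among the other 56 genes at 33 (58.9%). When any listed start was allowed, the counts were 13 of 16 and 36 of 56, and 6.24% of protein-coding genes. Genes with and without an interval thus both carried TOP starts, and the difference between them was not tested. Leaving out the genes whose listed start is not the outer end, a choice made after seeing the data, gave 12 of 15, 33 of 54 and 4.57% of 13820 protein-coding genes.

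**Figure D1:**
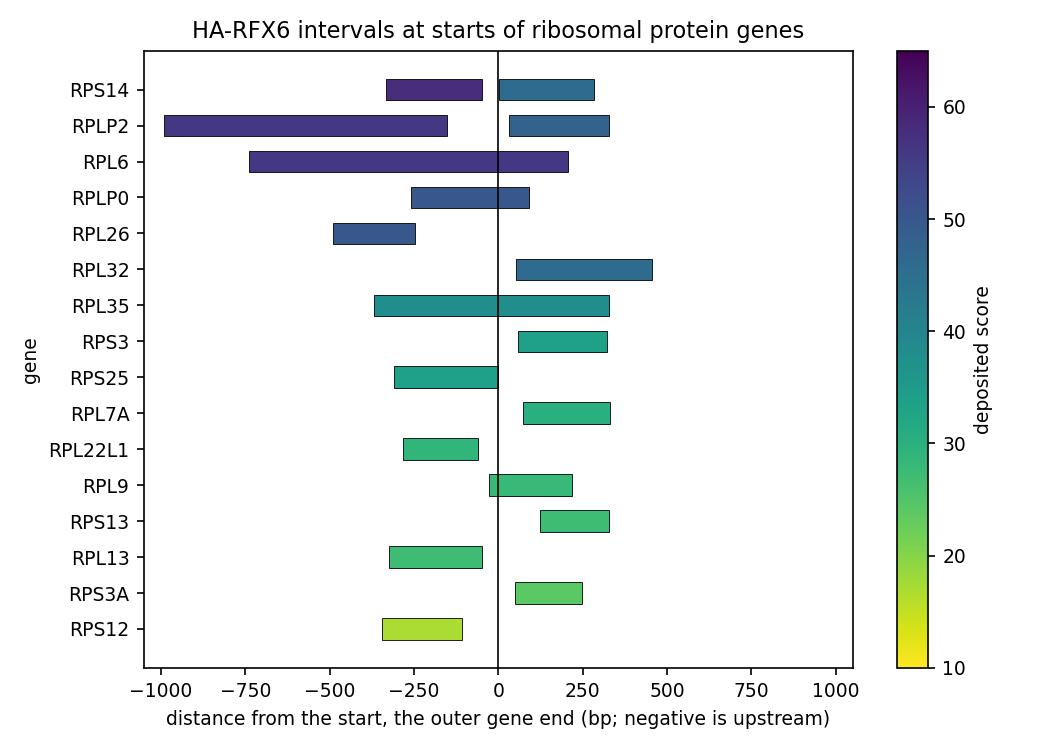
Intervals of the HA-RFX6 list at the starts of 16 ribosomal protein genes. The x axis is the distance from the start, taken as the outer end of the gene, in bp, each bar is 1 interval, and the colour is its deposited score. Of the 18 intervals, 17 have their midpoint within 400 bp of the start, and RPS14 and RPLP2 have 2 intervals each.

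The intervals lay on both sides of the starts. Among 18 intervals at the 16 starts, the midpoint was upstream in 10 and downstream in 8, from -572 bp (upstream) at RPLP2 to 253 bp (downstream) at RPL32, with a median of -52.5 bp. For all 2831 pairs of a gene and an interval at its start, the midpoint was downstream in 61.1%, and the median was 83 bp downstream. The distance between midpoint and start, regardless of direction, had a median of 187.5 bp here and 208 bp for all pairs. Within 400 bp of the start were 17 of the 18 midpoints and 74.0% of all pairs.

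Among genes of the large subunit, the stalk proteins were examined first. They form the lateral stalk that recruits elongation factors. RPLP0, which anchors the stalk, had 1 interval of 351 bp (chr12:120201020-120201370) with a score of 50 that spanned the start. RPLP2, one of the acidic proteins attached to it, had an upstream interval of 840 bp (chr11:808976-809815), listed on 2 lines with scores of 56 and 42, and a second interval inside the gene (chr11:810000-810294) with a score of 48. RPLP1, which pairs with RPLP2 in the stalk, had no interval within 1 kb. The scores at RPLP0 and RPLP2 were above the upper quartile of the list, 39. Both RPLP2 intervals also lay within 1 kb of the start of a second gene, PIDD1.

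At RPL6 and RPL26 the scores were likewise high for this list. The RPL6 interval was the widest of the group, at 945 bp (chr12:112418630-112419574), with scores of 56 and 39 on its lines. It spanned the gene's outer end, and an end of PTPN11 was within 1 kb. The RPL26 interval (chr17:8383440-8383682) had a score of 50 and lay 247 bp upstream of the start. RPL26 is known to bind the mRNA of p53. At RPL32, the interval (chr3:12841129-12841530) with scores of 46 and 24 began 52 bp inside the gene.

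Other genes of the large subunit had scores closer to the middle of the list. RPL35 (chr9:124861631-124862326) had a score of 38 and an interval that spanned the start, with the start of ARPC5L within 1 kb. RPL7A, a host of intronic snoRNAs, had a score of 30 at chr9:133348290-133348548, inside the gene and 72 bp from the start. An end of another coding gene was within 1 kb of this interval. RPL9 had a score of 28 at chr4:39458704-39458949, where the start of LIAS was also within 1 kb. RPL13 had a score of 27 at chr16:89560334-89560608, upstream of the start by 49 bp. RPL22L1, a paralog of RPL22, had a score of 29 at chr3:170870255-170870478, upstream by 60 bp. The parent gene RPL22 had no interval.

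Among genes of the small subunit, RPS14 stood highest of those with an interval at the start. RPS14 is the gene whose loss is linked to the 5q- syndrome, an anaemia. Its upstream interval (chr5:150449788-150450073) had a score of 58, and the second interval (chr5:150449455-150449738) a score of 46, inside the gene 1 bp from the start. At RPS3, whose product lines the mRNA entry channel, the interval (chr11:75399577-75399838) had a score of 34 and lay inside the gene 59 bp from the start. RPS25 had the same score, 34, at chr11:119018344-119018651, 1 bp upstream of the start and within 1 kb of the start of TRAPPC4.

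The remaining small-subunit genes had lower scores. They were RPS13 with a score of 27 (chr11:17077339-17077544), RPS3A with a score of 24 (chr4:151099676-151099875) and RPS12 with a score of 17 (chr6:132814224-132814459). RPS13 and RPS3A had the interval inside the gene, whereas at RPS12 it lay 110 bp upstream. Of all intervals, 6.81% scored lower than the one at RPS12.

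Outside the known starts, 7 more genes had an interval. For 5 of them the promoter table used here gave no strand. RPL37 had an interval (chr5:40834993-40835216) with a score of 33 whose nearest base was 6 bp from the high-coordinate end. RPL30 had one 51 bp inside the same kind of end (chr8:98045295-98045494) with a score of 23. RPL39L, a paralog of RPL39, had one spanning the high-coordinate end (chr3:187139302-187139631) with a score of 22. RPL7 had the most distant, at chr8:73295371-73295610, with a score of 32, 905 bp beyond the gene and within 1 kb of an end of RDH10.

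The last 2 genes depended on neighbours. The interval assigned to RPS18, whose product sits in the head of the small subunit, had the highest score of the group, 61 (chr6:33277140-33277516), but it lay 629 bp beyond the far end of the gene, 5065 bp from the start, and an end of B3GALT4 was within 1 kb. The read-through gene RPL36A-HNRNPH2 held an interval with a score of 39 (chrX:101408252-101408452) 17241 bp from its start, at the starts of GLA and HNRNPH2. RPL36A itself was 12097 bp away. When each interval was given only to the coding gene with the nearest end, RPS18, RPL36A-HNRNPH2, RPL6 and RPL7 dropped out and 19 of 91 genes were left, and the same rule gave an interval to 16.7% of all protein-coding genes. In total, 10 of the 25 intervals had an end of another coding gene within 1 kb, compared with 596 of 3142 intervals at coding gene ends (19%) with ends of at least 2 genes.

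The scores of the 25 intervals ranged from 17 to 61, and their median was 34 (quartiles 27 and 48). For all 5019 intervals they ranged from 13 to 170, and the median was 30 (quartiles 22 and 39). A score of at least 30 was reached by 16 of the 25 intervals, compared with 52.2% of all. When each gene was given its best score, the median was 33 for the ribosomal protein genes and 33 for all protein-coding genes with an interval. The intervals were of usual width, with a median of 275 bp here and 272 bp overall. Within the list, RPS18 ranked 271 and RPS14 ranked 360 of 5019, which were the best places among the ribosomal protein genes.

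**Figure D2:**
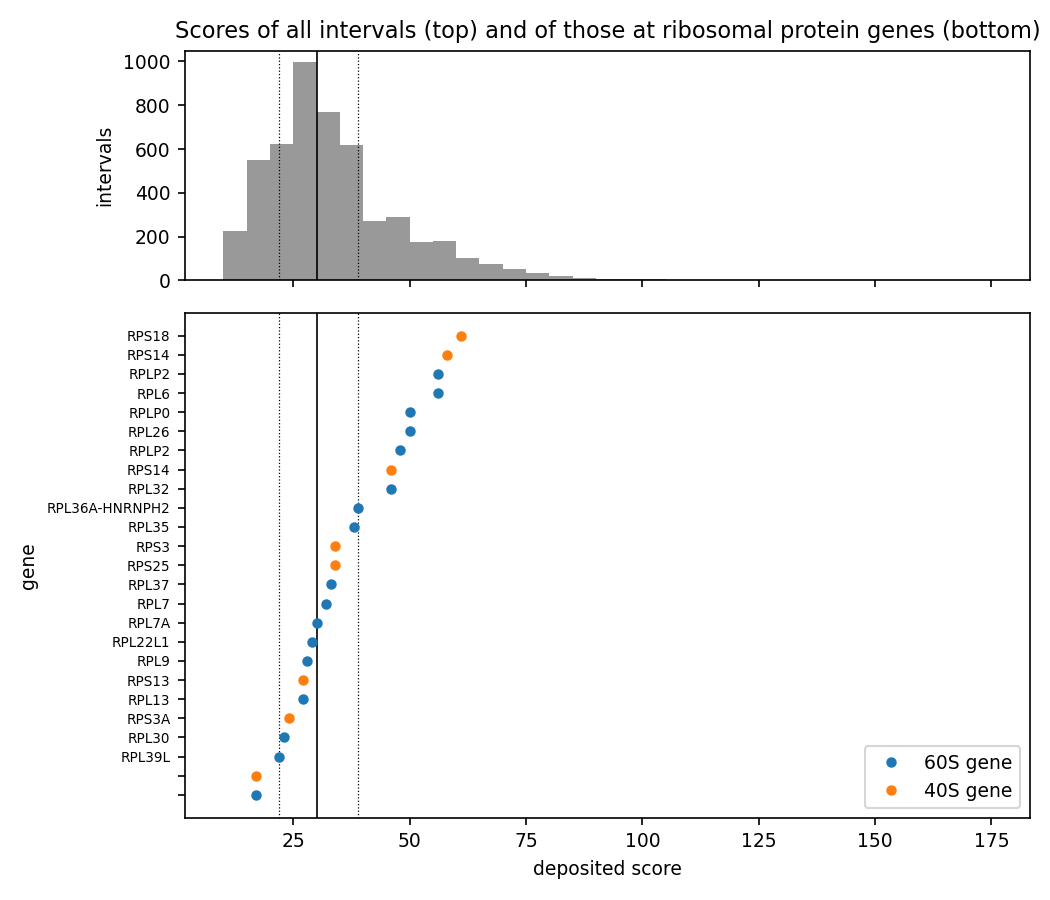
Deposited scores of all 5019 intervals as a histogram (top) and of the 25 intervals at ribosomal protein genes as points (bottom). The solid line is the median of all intervals, 30, and the dotted lines are its quartiles, 22 and 39. Points with a score of at least 20 carry their gene symbol. The points run from 17 to 61, and 9 lie above the upper quartile.

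The distance limit of 1 kb left some genes close to it. Nearest inside it were RPS18 at 629 bp and RPL7 at 905 bp, and nearest outside it were RPL23A at 1565 bp, with a score of 22, and RPS2 at 2147 bp, with a score of 25. Of the 68 genes without an interval, 7 had one within 5 kb, namely RPL19, RPL23A, RPL35A, RPL36, RPL3L, RPS2 and RPS24.

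The subunits and gene kinds were then set side by side. In the core list, 13 of 46 large-subunit genes (28.3%, 17.3% to 42.5%) and 7 of 31 small-subunit genes (22.6%, 11.4% to 39.8%) had an interval, and the Wilson intervals overlapped. Of the 10 paralogs, RPL22L1 and RPL39L had an interval. Genes of the large subunit without one included RPL3, RPL4, RPL5 and RPL11, of which RPL5 and RPL11 bind MDM2. Genes of the small subunit without one included RPSA, RPS6, the substrate of S6 kinase, and RPS19, which is mutated in Diamond-Blackfan anaemia.

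Other lists gave shares in a similar range. Mitochondrial ribosomal protein genes had an interval at 14 of 77 (18.2%, 11.2% to 28.2%), and proteasome genes at 14 of 40 (35.0%, 22.1% to 50.5%). The proteasome genes were taken by symbol, which also takes in genes such as PSMC3IP that encode no subunit. In a list of 63 genes of ribosome assembly, rRNA transcription and TOP mRNA translation, 14 had an interval (22.2%, 13.7% to 33.9%). The highest scores in this list were 71 at PABPC1, which encodes the poly(A)-binding protein, 67 at EEF1D, a subunit of the elongation factor complex, 51 at HNRNPA1, 48 at POLR1B, a subunit of RNA polymerase I, and 48 at LARP1, which binds TOP mRNAs. FAU and RACK1, which encode ribosomal proteins under other symbols, had no interval.

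**Figure D3:**
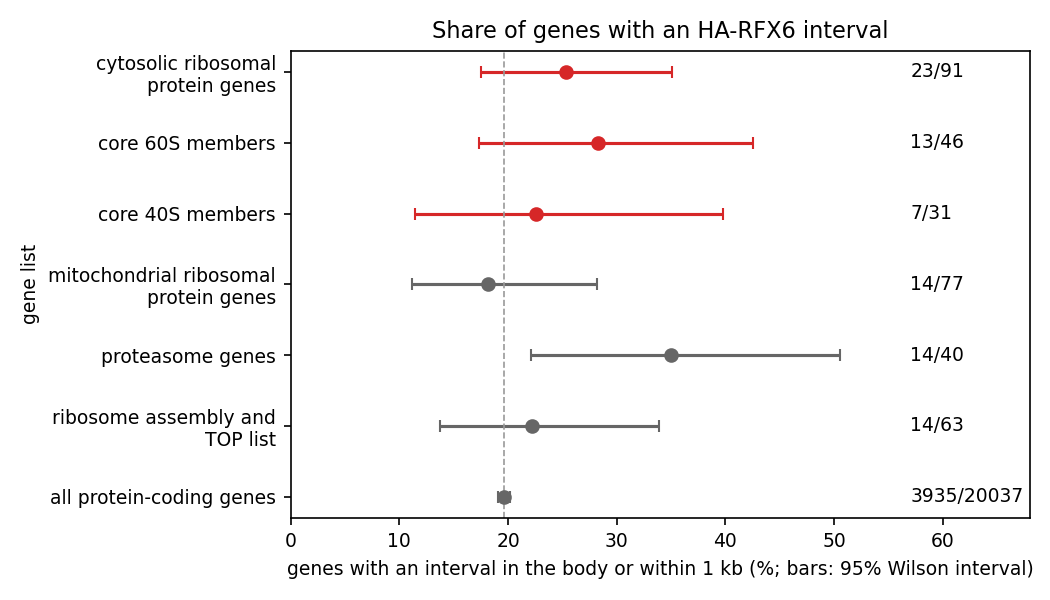
Share of genes with an HA-RFX6 interval in the body or within 1 kb, in percent, for 7 gene lists. Points are shares, bars are 95% Wilson intervals for the counting of genes, and the counts are at the right. The dashed line is the share of all protein-coding genes, 19.6%, which lies inside the bars of the 3 ribosomal protein lists in red and outside the bar of the proteasome genes.

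Ribosomal protein genes were unevenly spread over the chromosomes, and so were their intervals. On chromosomes 1 and 2, 0 of 9 genes had an interval, whereas 17.7% of protein-coding genes there did. On chromosome 19, which carries 12 of the genes, 1 had one, against 13.4% of coding genes. On chromosome 11, 4 of 5 genes had one (RPLP2, RPS13, RPS3 and RPS25), against 23.4%. On chromosome 4, where 6.23% of coding genes had one, RPL9 and RPS3A were 2 of 3. No test of these small counts was made.

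**Figure D4:**
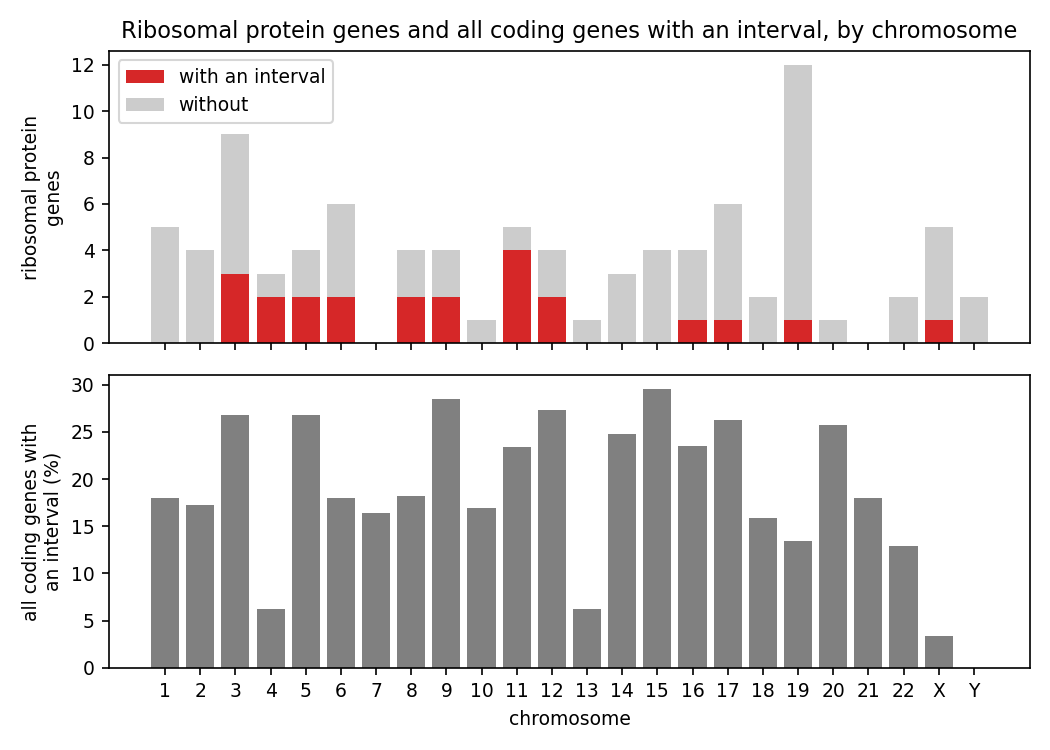
Ribosomal protein genes per chromosome (top; red, with an interval; grey, without) and the share of all protein-coding genes with an interval in percent (bottom). Chromosome 11 has the most genes with an interval, 4 of 5, and chromosome 19 has 1 of 12.

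Ribosomal protein genes have many processed pseudogenes, copies of the mRNA inserted elsewhere, and reads from such copies are hard to place. Of 1966 such pseudogenes in the gene table, 7 (0.356%, 0.173% to 0.733%) had an interval in the body or within 1 kb, compared with 93 of 16845 pseudogenes overall (0.552%, 0.451% to 0.676%). Many ribosomal protein genes also hold snoRNA genes in their introns. Of 60 snoRNA genes inside the members, 0 were overlapped by an interval. The share for all snoRNA genes is not given here, so this count cannot be set against it. Host genes had an interval at 11 of 30 (36.7%) and genes with no snoRNA gene at 12 of 61 (19.7%), against 19.6% of all protein-coding genes, and none of these differences was tested. How reads that map to several places were treated is not given in the sources used here.

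Finally, known motifs were counted in the 300-base promoters of the 72 genes, at the listed starts, from 250 bases before to 50 bases after the start, on both strands. The RFX half-sites GTTGCC and GTTACC were found in 9 and 8 promoters (12.5% and 11.1%), compared with 12.6% and 5.88% of all protein-coding promoters. Either half-site was found in 5 of the 16 promoters with an interval at the start (31.2%), 12 of the other 56 (21.4%), and 17.5% of all. The 16 promoters, here and for the other motifs, include that of RPL6, whose sequence was read 7393 bp inside the gene. Leaving out the genes whose listed start is not the outer end gave 5 of 15, 12 of 54 and 17.4% of all. A pair of half-sites, GTNNCC followed by 0 to 3 bases and GGNNAC, was found at 1 gene, RPL22L1, compared with 4.35% of all promoters. It read GTTTCCTGGGTTAC at chr3:170870305-170870318, from 123 to 110 bases before the start, and overlapped the GTTACC half-site there. It lay inside the interval upstream of RPL22L1. Within the searched bases, half-sites inside an interval were also present at RPL13 and RPLP0, so 3 genes had one. Parts of intervals outside the 300 bases were not searched. At RPL32, RPS3, RPL7A and RPS13 the whole interval lay outside them. The same share for all protein-coding genes is not given here. A match is a description of the sequence and not evidence of binding.

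Promoter motifs of other factors were also counted. The ETS motif CCGGAAG was in 23 of 72 promoters (31.9%), compared with 14.2% of all. It was in 6 of the 16 with an interval at the start (37.5%) and in 17 of the other 56 (30.4%). Of the coding promoters with an interval at the start, 20.9% had it. The YY1 motif AAGATGGC was in 7 (9.72%), compared with 3.86%. The SP1 motif GGGCGG was in 38 (52.8%), compared with 58.3% of all. Among promoters with an interval at the start it was in 7 of 16 (43.8%), compared with 77.8% of such coding promoters. In the other ribosomal protein promoters it was in 31 of 56 (55.4%), and these differences were not tested. The sequence TATAAA, counted on either strand, was in 7 (9.72%), compared with 9.75% of all. Of these 7, 4 were in promoters with an interval at the start, at RPL7A, RPL22L1, RPLP0 and RPS3. These were 4 of 16 (25%), compared with 4.16% of the coding promoters with an interval at the start, and the difference was not tested. The promoters with an interval had a median GC content of 60.3%, compared with 58.7% for those without and 68.3% for all coding promoters with an interval at the start.

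**Figure D5:**
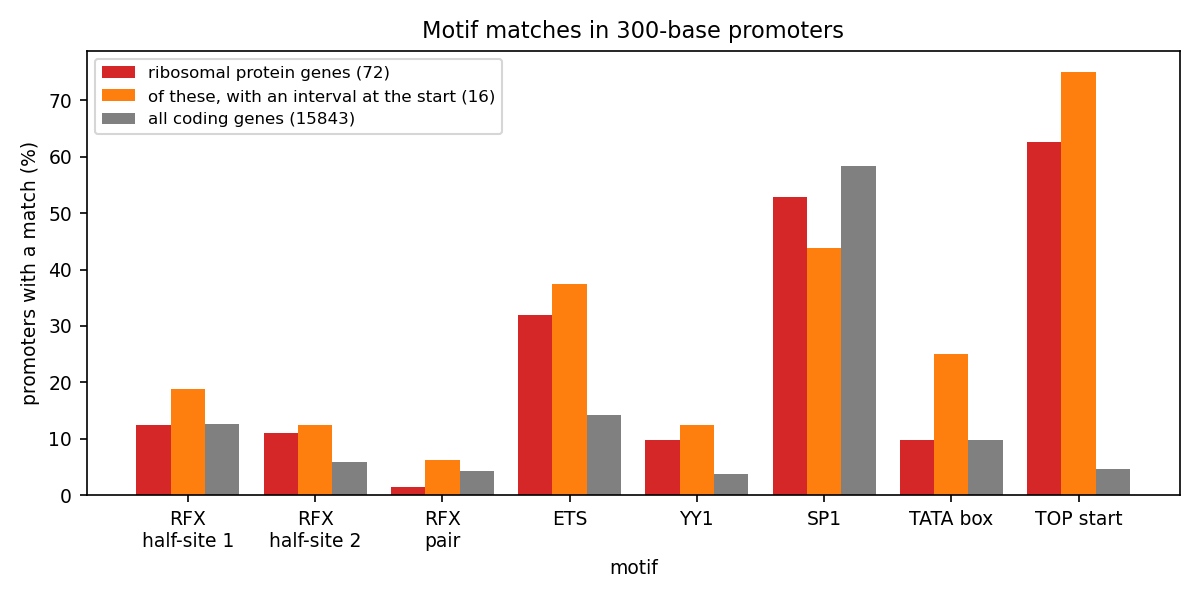
Share of 300-base promoters with a match, in percent, for 8 motifs on the x axis. Bars are all ribosomal protein genes with a promoter sequence (72), those with an interval at the start (16) and all protein-coding genes (15843). The TOP start is at 62.5%, 75% and 4.59%, and the first RFX half-site, GTTGCC, at 12.5%, 18.8% and 12.6%.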

How the data were processed

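The authors precipitated chromatin of HA-RFX6-overexpressing MHCC-97H cells and sequenced it, and peaks were called by MACS2 2.1.0.2 per the labels. The file lists peaks with a score that the authors deposited without a header. As no source explains this score, it served for ranks and filters only. The aligner, the treatment of reads with several positions and the use of the input as control are not given in the sources used here.

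The submitters' processing notes name GRCh37, but the coordinates were taken as GRCh38, since 15.5% of known gene starts had an interval within 1 kb, against 1.1% and 0.997% after moves of 20 kb. Identical intervals of the 6214 lines were counted once with their highest score, 1 line with split digits was repaired, which left 5019 nuclear intervals. Intervals were placed relative to the outer end of a gene on the given strand, and sequences were read at the listed start nearest to it. Genes, promoters and strands came from RefSeq (GRCh38.p14). An interval was assigned when it overlapped by at least 1 bp a gene or the 1 kb beside it. All genes with an interval were to be named, and items not reported here were left out by name but kept in counts. Only counts, medians and Wilson intervals were computed, in Python 3.11.15 with pandas 2.3.3, scipy 1.17.1 and matplotlib 3.10.9. Procedures were checked with planted intervals. Genes and lists were chosen with earlier results of these data known.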

Additional observations from a re-analysis of the deposited data

How the results depend on the processing

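The 23 genes with an interval and the 16 with one at the start fell to 14 and 10 for scores of at least 30, where 12.1% and 9.48% of all protein-coding genes were called. Among the 9 genes lost were RPL13, RPL22L1, RPL30, RPL39L, RPL9, RPS12, RPS13 and RPS3A. Other settings stayed within 1.5-fold of these counts. They were scores of at least 20, windows of 2 kb and 5 kb, the body only, gene ends only, midpoints, the nearest coding gene end, merging and the core list. The first count ranged from 16 (body only), where 16.6% of all protein-coding genes were called, to 30 (within 5 kb), where 22% were. With gene ends only it was 22 of 91, where 15.9% of all protein-coding genes were called, and no Wilson interval was computed for it. The median score of 34 ranged from 33 to 36 when repeated lines, midpoints or merged intervals were treated otherwise. When the list was moved by 20 kb, 7 ribosomal protein genes had an interval after the move down and 7 after the move up, when 12.9% and 12.8% of all protein-coding genes had one. At known gene starts the moved lists gave 1.1% and 0.997%. No paired analysis was possible because the list came from 1 ChIP library, and for this reason no replicate could be left out. As the depth is unknown, a gene with no interval may also be one where reads were too few.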
